A study of Mus musculus with 2 samples.

Results

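Transcripts of 10 genes of interleukin-6 (IL-6) and leukemia inhibitory factor (LIF) signaling were measured in whole mouse kidney after acute kidney injury (AKI). The genes were chosen by name, as the rows of the normalized table for *Lif*, *Il6ra*, *Il6st*, *Lifr*, *Osmr*, *Jak2*, *Stat3*, *Socs1*, *Socs2* and *Socs3*. All 10 were listed, out of 19829 genes in the table. The table holds 2 libraries, 1 per group. WT+AKI came from wild-type kidney, and TG+AKI came from kidney of a transgenic line that overexpresses *Inmt*, which encodes indolethylamine N-methyltransferase, in proximal tubules. By the methods, both groups were male mice on a C57BL/6 background that had received the calcineurin inhibitor voclosporin intraperitoneally at 30 mg/kg per day for 2 weeks, from 8 to 10 weeks of age, and underwent bilateral renal ischemia of 30 min with reperfusion (I/R) at 14 weeks. Kidneys were taken 24 h after I/R according to one part of the study's text and 48 h according to another. The sample labels record no treatment for either group, while the series design names voclosporin for both, and the submitted name of TG+AKI includes the words conditional knockout beside the transgene. The promoter that drives the transgene and the number of mice behind each library are not given in the sources used here. There was no library from uninjured or untreated kidney, so each value compares 1 injured kidney library with the other.

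As a check of the labels, *Inmt* stood at a normalized value of 10.4 in WT+AKI (443 reads), while TG+AKI held 403 (13339 reads), which gives a ratio of 38.5 [35.1 to 42.5]. The libraries held 38542764 reads (WT+AKI) and 36427421 reads (TG+AKI). A normalized value is the number of reads of a gene divided by a scaling factor of its library, and 1 read was worth 0.0236 in WT+AKI and 0.0302 in TG+AKI. No listed value was 0, so a gene that lacked reads in at least 1 library, even if the other held many, is outside every comparison and share below. Ratios are TG+AKI over WT+AKI throughout. Brackets hold 95% intervals of the ratio, by the exact Clopper-Pearson method. Amplified fragments were not tagged by molecule, so intervals and depth limits cover counting error only. With 1 library per group, the spread between mice could not be measured, and no difference below has a replicate check or a p-value. Genes that reached a value of 1 in either library (14997) are called tested, and a gene is called lower or higher at a ratio of at most 0.5 or at least 2. By that rule 11.0% of tested genes were lower and 7.35% were higher in TG+AKI, and the median log2 ratio of all tested genes was -0.02.

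IL-6 family cytokines bind a ligand-specific receptor chain together with the shared chain gp130, the product of *Il6st*. The assembled receptor activates Janus kinases, which phosphorylate STAT3, and STAT3 then enters the nucleus and switches on its target genes. Among those targets is *Socs3*, whose product binds gp130 and the kinases and shuts the signal off again. In injured kidney, LIF and related cytokines and STAT3 activity in tubular and immune cells are well known parts of the response. Transcript levels do not report phosphorylation, and the activity of STAT3 was not measured by these data.

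The ligand *Lif* and the feedback inhibitor *Socs3* showed the widest gaps among the 10 genes, and both were far lower in TG+AKI. The receptor chain *Osmr* and the transcription factor *Stat3* were also lower by more than 2-fold. *Il6ra*, *Il6st*, *Jak2* and *Socs2* were lower by less than 2-fold, and *Lifr* was the member with a higher value in TG+AKI. The call rule thus covered 4 members as lower and 0 as higher, against 11.0% and 7.35% of all tested genes (18.3% in either direction). By counting error alone, the interval lay below 1 for 8 members and above 1 for 1, and included 1 for 0, against 38.7%, 36.3% and 25.0% of all tested genes. Both counts cover 9 members, because *Socs1* stayed under a value of 1 in both libraries, and *Lif* reached that value in WT+AKI alone.

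**Figure D1:**
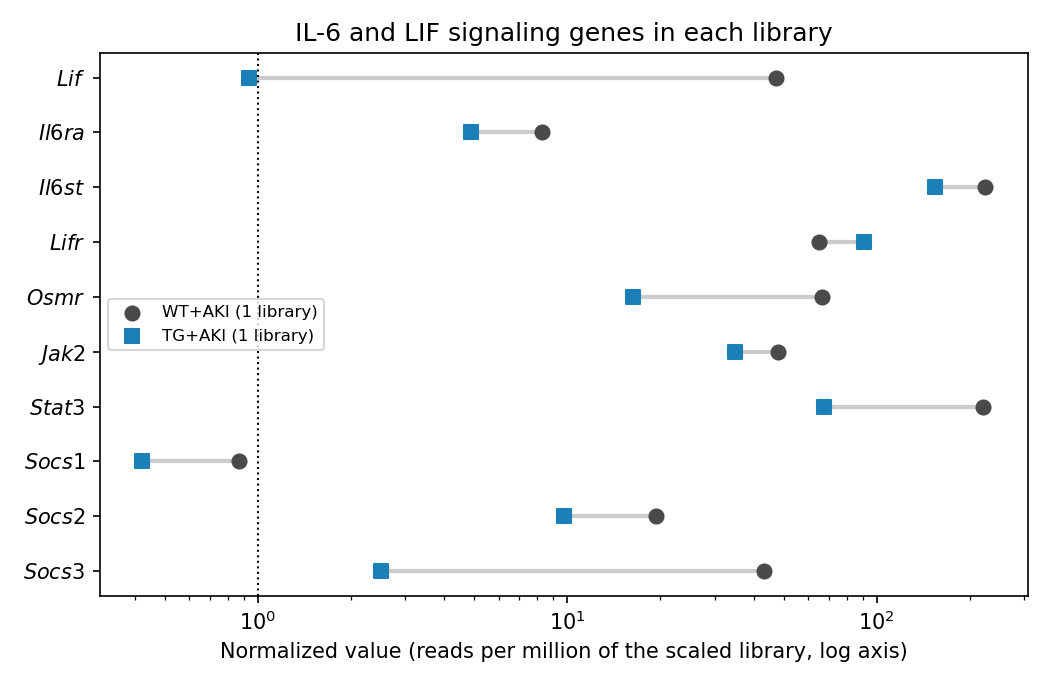
Normalized values of the 10 members (rows) in the WT+AKI library (circles) and the TG+AKI library (squares), as reads scaled to the library, on a log axis; the dotted line marks the value of 1 that a gene had to reach in at least 1 library. *Lif* and *Socs3* have the longest lines, *Lifr* is the one gene whose square lies to the right of its circle, and both points of *Socs1* lie left of the dotted line.

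*Lif* (gene ID 16878, GRCm38 chr11:4257568-4272514, plus strand) encodes the secreted cytokine LIF. WT+AKI held a value of 47.3 (2006 reads) and TG+AKI a value of 0.936 (31 reads). The level in TG+AKI was thus 50.5-fold lower, with an interval of 35.5-fold to 74.6-fold, and the log2 ratio was -5.66. This ratio lay at percentile 0.173 of all tested genes. Of the 10 members, *Lif* had the lowest ratio, and in TG+AKI its level per kilobase of transcript could not be told from that of *Socs1*, the least abundant member in both libraries.

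The receptor chains did not move together. *Il6ra* (gene ID 16194, chr3:89869324-89913196) encodes the chain that binds IL-6 itself. Its values were 8.28 (WT+AKI, 351 reads) and 4.89 (TG+AKI, 162 reads), with a ratio of 0.591 [0.487 to 0.714]. *Il6st* (gene ID 16195, chr13:112464070-112506860), the shared gp130 chain, had values of 224 (9509 reads) and 154 (5116 reads), a ratio of 0.689 [0.666 to 0.713]. Both chains through which IL-6 signals were therefore lower in TG+AKI beyond counting error, although by less than 2-fold.

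*Lifr* (gene ID 16880, chr15:7090610-7197489) encodes the receptor chain that pairs with gp130 to bind LIF. Its values were 64.9 (2750 reads) and 90.8 (3007 reads), with the higher value in TG+AKI and a ratio of 1.40 [1.33 to 1.47]. *Osmr* (gene ID 18414, chr15:6813568-6874968) encodes the chain that pairs with gp130 to bind oncostatin M. Its values were 66.3 (2812 reads) and 16.3 (539 reads), so that TG+AKI lay 4.08-fold lower (3.72-fold to 4.48-fold). The related chains *Lifr* and *Osmr* therefore differed in opposite directions between the kidneys. Per kilobase of the longest annotated transcript, *Osmr* stood at 1.80 times *Lifr* in WT+AKI (1.71 to 1.90) and at 0.315 times *Lifr* in TG+AKI (0.287 to 0.346). Such a ratio within a library does not depend on how the 2 libraries are scaled. This pair was set side by side after its values had been seen.

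*Jak2* (gene ID 16452, chr19:29251803-29313095), a kinase that sits on gp130, had values of 47.9 (2031 reads) and 34.8 (1153 reads), a ratio of 0.727 [0.676 to 0.782]. *Stat3* (gene ID 20848, chr11:100886806-100939594, minus strand), the transcription factor activated by this receptor, stood at 221 (9359 reads) in WT+AKI and at 67.5 (2236 reads) in TG+AKI. Its level was 3.27-fold lower in TG+AKI (3.12-fold to 3.43-fold), at percentile 4.97 of all tested genes. *Stat3* was the most abundant of the 10 members per kilobase in WT+AKI, at 36.5 (35.8 to 37.3). In TG+AKI it stood at 11.2 (10.7 to 11.6), second to *Il6st* at 17.8 (17.3 to 18.3).

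The 3 SOCS genes among the members encode inhibitors that bind receptors or Janus kinases and end the signal. *Socs3* (gene ID 12702, chr11:117966079-117970336, minus strand) stood at 43.2 (1831 reads) in WT+AKI and at 2.51 (83 reads) in TG+AKI. The level was 17.2-fold lower in TG+AKI (13.8-fold to 21.7-fold), the log2 ratio was -4.11, and the gene lay at percentile 0.513 of all tested genes. *Socs2* (gene ID 216233, chr10:95383903-95417321), best known as an inhibitor of growth hormone signaling, had values of 19.4 (822 reads) and 9.78 (324 reads). Its ratio of 0.505 [0.442 to 0.575] sat at the limit of the call, and the call changed with the scaling, as it did for *Il6ra*. With the libraries set to equal read totals, *Socs2* (log2 ratio -1.26) and *Il6ra* (-1.03) also counted as lower, so that 6 members did, against 16.0% of all genes. *Socs1* (gene ID 12703, chr16:10783808-10785536), an inhibitor of Janus kinases that interferons induce strongly, had values of 0.873 (37 reads) and 0.423 (14 reads). Its ratio of 0.484 had a wide interval [0.242 to 0.917], which lay below 1 by counting error alone and hardly fixed its size.

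**Figure D2:**
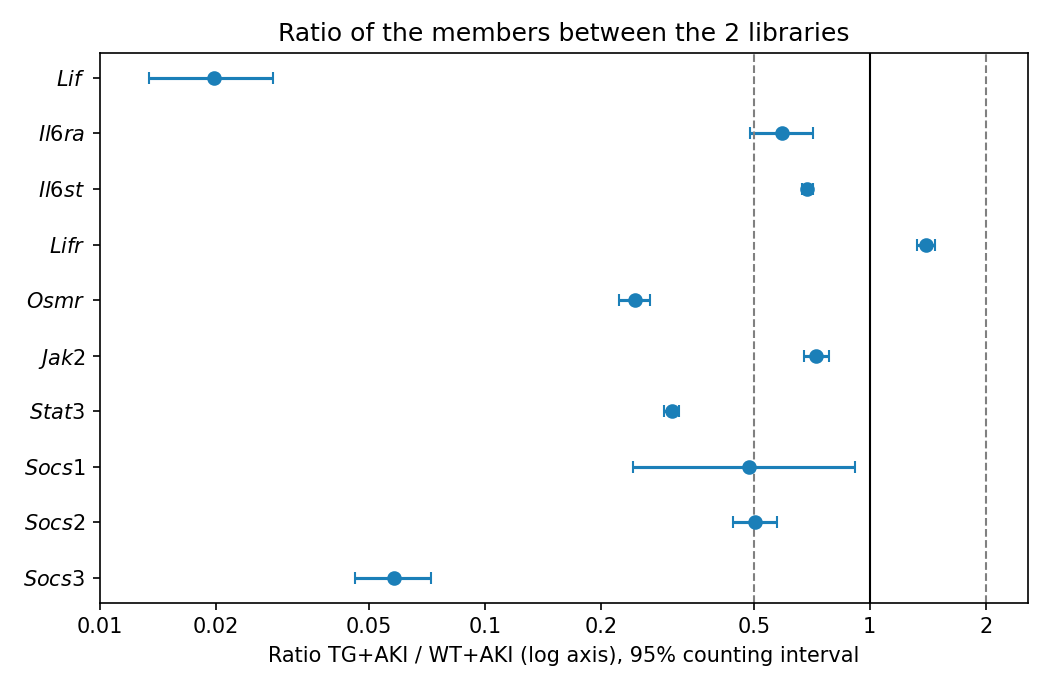
Ratio of TG+AKI to WT+AKI for the 10 members on a log axis, with 95% intervals from the reads; the solid line marks equal levels and the dashed lines mark 2-fold differences. *Lif* (0.0198) and *Socs3* (0.0580) lie far to the left, *Osmr* (0.245) and *Stat3* (0.306) lie left of the dashed line at 0.5, and *Lifr* (1.40) is the one point to the right of the solid line.

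A promoter window of *Socs3* is shown because this gene is the textbook STAT3 target among the members. STAT dimers bind the palindromic letters TTCNNNGAA, and windows of 300 bases, from 250 before to 50 after each RefSeq start site on GRCm38.p6, were searched for these letters. The motif reads the same on both strands, so 1 search covered both. It was found in 1 of the 9 members with a window, which was *Socs3*, and in 8.55% of the 13714 listed genes with a window. *Socs2* had no window in the table. In the list of STAT3 target genes described further on, 2 of 18 genes with a window held the motif, and in the list of acute-phase genes 4 of 11 did. The sequences are given 5′ to 3′ on the strand of the gene, with the match in capitals.
Socs3, minus strand, chr11:117969502-117969530: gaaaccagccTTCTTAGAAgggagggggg
Icam1, plus strand, chr9:21015888-21015916: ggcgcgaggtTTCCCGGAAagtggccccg
Fga, plus strand, chr3:83025909-83025937: aggcccccatTTCCTGGAAtgtagattcc
Fgb, minus strand, chr3:83050007-83050035: gactcaatgaTTCGAGGAAccccctgtgt
Itih4, plus strand, chr14:30886415-30886443: aaacctgcatTTCCGAGAActtgcaccag
Apcs, minus strand, chr1:172895280-172895304: atcttcTTCTAGGAAagcacagggt
The *Socs3* match begins 154 bases before the start site of this RefSeq window, and the *Icam1* match begins 42 bases before its own. The annotated *Socs3* gene reaches upstream of that start site, to chr11:117970336, so its match lies within the annotated gene. The ratios were 0.0580 for *Socs3*, 0.177 for *Icam1*, 0.0568 for *Fga*, 0.0594 for *Fgb* and 0.0695 for *Itih4*. *Apcs* had a ratio of 1.32 [0.768 to 2.29] and did not reach a value of 1 in either library, so that no difference was detectable for it at this depth. Lower values also occurred without these letters in the windows, in *Lif*, *Osmr* and *Stat3* and in the genes with the lowest ratios of both lists (*Il1rn*, *Timp1*, *Saa1*, *Lcn2* and *Serpina3n*). A match is a stretch of letters in the reference genome, and binding was not measured. None of the matches is identified here as an established STAT3 site.

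The pathway was then viewed through wider lists by role, which include the members. The calls of *Lif*, *Osmr*, *Stat3* and *Socs3* as lower therefore recur in the list counts below and add nothing new there. Of 11 IL-6 family ligands and ligand subunits, 7 were listed, and *Il6*, *Il27*, *Il31* and *Ctf2* were not analysed here. Of these 7, 5 were tested, and 4 were lower by the 2-fold rule (*Lif*, *Clcf1*, *Il11* and *Cntf*). By the same rule 0 were higher, and the shares of all tested genes were 11.0% lower and 7.35% higher. The median log2 ratio of all 7 was -1.54, against -0.03 for all genes without a filter. The median of the 5 tested ligands was -2.99, which is the value of *Il11* itself, and it was -1.05 with a pseudocount of 1. *Lif*, *Il11* and *Cntf* reached a value of 1 in WT+AKI alone, so the filter favoured ligands that were lower in TG+AKI. *Clcf1*, which encodes cardiotrophin-like cytokine factor 1, had values of 42.8 (1815 reads) and 2.78 (92 reads), so that TG+AKI lay 15.4-fold lower (12.5-fold to 19.2-fold). It shares 6.20% of the 100-base words of its longest transcript with an overlapping annotated gene. *Il11* had values of 1.44 (61 reads) and 0.181 (6 reads), a ratio of 0.126 [0.0445 to 0.290].

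*Ctf1*, which encodes cardiotrophin-1, was the tested ligand that did not follow, with values of 4.84 and 5.25 and a ratio of 1.09 [0.883 to 1.34] that includes 1. *Cntf* (ciliary neurotrophic factor) had values of 1.58 and 0.544, but 76.9% of the 100-base words of its longest transcript also occur in *Zfp91*, so its level is uncertain. *Osm*, the gene of oncostatin M, had 7 and 4 reads, and *Ebi3* had 41 and 22. For both, a difference was not detectable at this depth, with ratios of 0.732 [0.157 to 2.88] and 0.687 [0.390 to 1.18].

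Per kilobase, *Clcf1* (12.1, 11.5 to 12.6) and *Lif* (11.8, 11.2 to 12.3) were the most abundant of the 7 listed ligands in WT+AKI and could not be told apart by counting error. *Ctf1* followed at 3.58 (3.10 to 4.10). In TG+AKI *Ctf1* came first at 3.89 (3.33 to 4.51), *Clcf1* came second at 0.783 (0.631 to 0.960), and *Lif* ranked 5 of 7 at 0.233 (0.158 to 0.330), with overlapping intervals between all neighbours in the order from *Clcf1* downward.

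Of the 8 IL-6 family receptor chains, all listed and tested, 2 were lower and 1 was higher by the 2-fold rule. Among all tested genes 11.0% were lower and 7.35% higher. The median log2 ratio of the 8 chains was -0.48. *Il11ra1*, the IL-11 receptor chain, had values of 23.9 and 60.4, a ratio of 2.53 [2.35 to 2.73]. Its copies *Il11ra2* and *Gm13305* share 42.7% of its 100-base words, so this ratio is uncertain. *Il27ra* had values of 1.91 (81 reads) and 0.453 (15 reads), a ratio of 0.237 [0.127 to 0.415]. *Cntfr* had a ratio of 0.767 [0.651 to 0.904] and *Il31ra* a ratio of 0.741 [0.499 to 1.09]. Per kilobase, gp130 (*Il6st*) led the receptors in WT+AKI at 25.8, followed by *Osmr* at 12.1, *Il11ra1* at 9.16 and *Lifr* at 6.72, and no neighbouring intervals in this order met. In TG+AKI the order was *Il11ra1* (23.2), *Il6st* (17.8), *Lifr* (9.40), *Cntfr* (3.60) and *Osmr* (2.96), and the intervals of the last pair met.

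**Figure D3:**
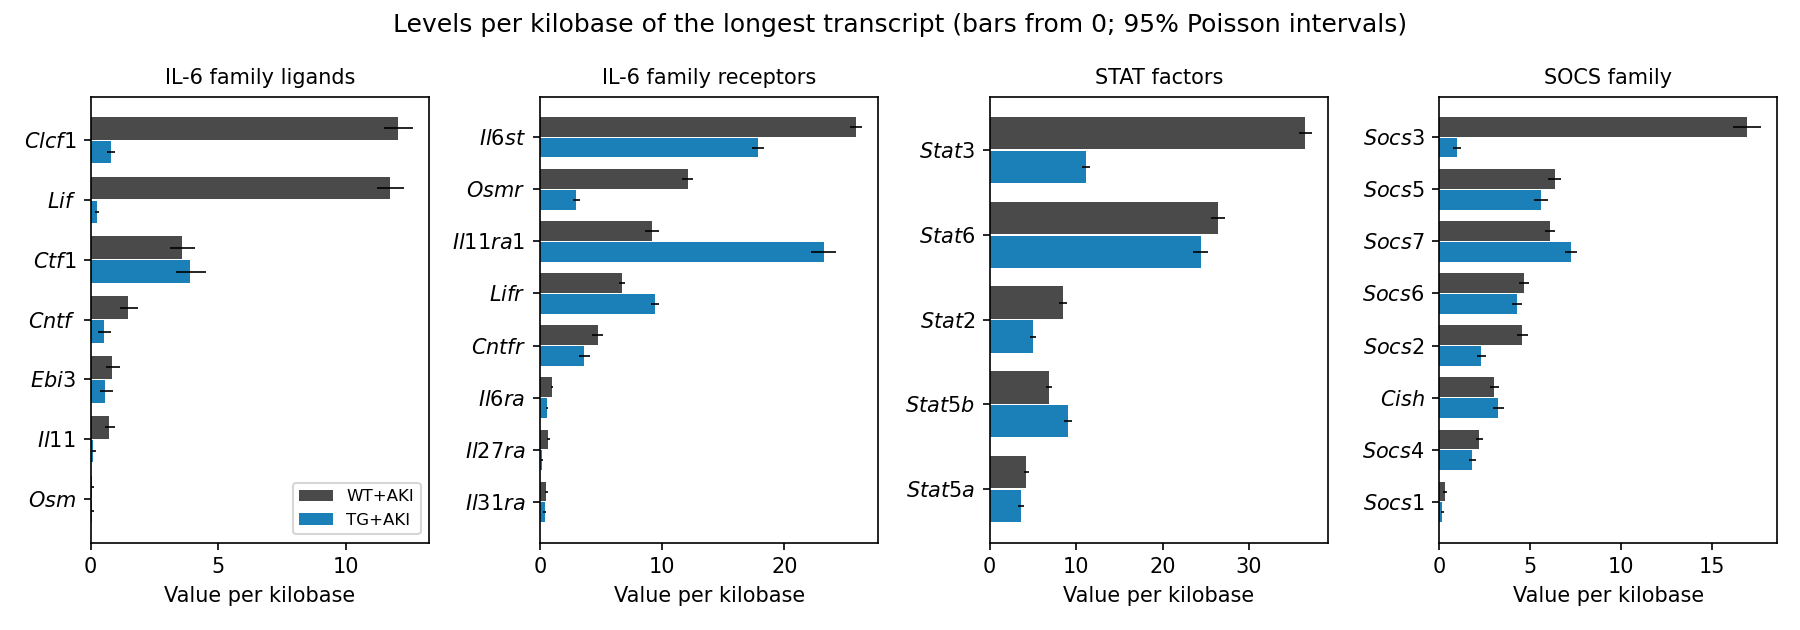
Normalized value per kilobase of the longest annotated transcript for ligands, receptor chains, STAT factors and SOCS genes, with 1 bar per library drawn from 0 and 95% Poisson intervals from the reads; genes are ordered by their level in WT+AKI. In WT+AKI the longest bars are those of *Clcf1* and *Lif*, *Il6st*, *Stat3* and *Socs3*, and in TG+AKI those of *Ctf1*, *Il11ra1*, *Stat6* and *Socs7*.

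All 4 Janus kinases had lower values in TG+AKI (median log2 ratio -0.35). By the 2-fold rule 1 of them was lower, against 11.0% of all tested genes. That gene was *Jak3*, a kinase used by cytokine receptors of lymphoid cells, with values of 32.4 and 11.0 and a ratio of 0.340 [0.302 to 0.382]. *Jak1*, the most abundant of the 4 per kilobase in both libraries, had a ratio of 0.874 [0.844 to 0.904], and *Tyk2* had a ratio of 0.846 [0.769 to 0.931]. Setting the libraries to equal read totals shifted every log2 ratio by -0.27, which is wider than the log2 ratios of *Jak1* (-0.19) and *Tyk2* (-0.24). The size of these 2 differences thus depends on the scaling, but the shift has the same sign and keeps their direction.

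Among the 5 STAT genes compared (*Stat4* was not analysed here), *Stat3* was the one lower by the 2-fold rule. That is 20.0% of the list, against 11.0% of all tested genes, and the list median was -0.23. *Stat2*, which acts in interferon signaling, had values of 37.2 and 21.8, a ratio of 0.587 [0.536 to 0.641]. *Stat6*, which acts downstream of IL-4, had values of 99.8 and 92.1, a ratio of 0.923 [0.880 to 0.967]. *Stat5a* and *Stat5b*, which carry growth hormone and prolactin signals, had ratios of 0.855 [0.759 to 0.961] and 1.32 [1.23 to 1.42]. Per kilobase, *Stat3* stood at 5.35 times *Stat5b* in WT+AKI (5.06 to 5.65) and at 1.24 times *Stat5b* in TG+AKI (1.16 to 1.32), a pair chosen after its values had been seen.

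The SOCS family as a whole did not share the low level of *Socs3*. Of its 8 genes 7 were tested, 1 was lower by the 2-fold rule (*Socs3*), 0 were higher, and the median log2 ratio was -0.19. The lower share of 14.3% is close to the 11.0% of all tested genes. *Socs4*, *Socs5*, *Socs6* and *Socs7* had ratios of 0.827, 0.879, 0.917 and 1.19. *Cish*, a STAT5-induced inhibitor of the same family, had a ratio of 1.08 [0.957 to 1.22]. The log2 ratios of *Socs7* (0.25) and *Cish* (0.11), like that of the ligand *Ctf1* (0.12), are smaller than the shift of -0.27 with equal read totals, which turns their direction. Per kilobase, *Socs3* was first of the 8 in WT+AKI at 16.9 (16.2 to 17.7) and seventh of the 8 in TG+AKI at 0.982 (0.782 to 1.22), above *Socs1* alone. In TG+AKI *Socs7* led at 7.24 (6.90 to 7.60). Relative to *Stat3* in the same library, *Socs3* stood at 0.463 per kilobase in WT+AKI (0.440 to 0.487) and at 0.0879 in TG+AKI (0.0697 to 0.109). This pair, too, was chosen with its values already known.

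The 10 other inhibitors of the pathway, the PIAS proteins, phosphatases and adaptors, held 0 genes lower and 0 higher by the 2-fold rule. Among all tested genes 11.0% were lower and 7.35% higher. The median log2 ratio of the list was -0.23. The widest differences in that list were those of *Ptprc* (ratio 0.530), which encodes the leukocyte phosphatase CD45, *Sh2b3* (0.666), *Ptpn2* (0.674), *Pias2* (1.44) and *Ptpn1* (0.769).

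STAT3 target genes were compared next, as genes that textbook accounts place under this factor and that other signals also induce. Of 23 genes 22 were listed and 20 tested. By the 2-fold rule 14 were lower and 1 was higher, against 11.0% and 7.35% of all tested genes, and the median log2 ratio was -1.54. The listed genes under the filter were *Mmp9* (ratio 0.173) and *Twist1* (1.28). Some tested genes, among them *Il1rn* and *Timp1*, reached a value of 1 in WT+AKI alone, so the filter favoured genes lower in TG+AKI. Without a filter the median of all 22 listed genes was -1.54 as well. The list includes the members *Socs3*, *Osmr* and *Stat3*. *Il1rn*, which encodes the interleukin-1 receptor antagonist, had values of 18.0 (764 reads) and 0.121 (4 reads), a ratio of 0.00670 [0.00182 to 0.0172]. *Timp1*, which encodes an inhibitor of matrix metalloproteinases, had values of 18.9 (802 reads) and 0.664 (22 reads), and lay 28.5-fold lower in TG+AKI (18.7-fold to 45.7-fold). *Myc* had values of 36.0 and 4.86 and *Icam1*, a leukocyte adhesion molecule, had values of 90.4 and 16.0. Both were lower in TG+AKI, with ratios of 0.135 [0.114 to 0.159] and 0.177 [0.161 to 0.194]. The gene that was higher, *Vegfa*, encodes an endothelial growth factor and had values of 129 and 286, a ratio of 2.22 [2.15 to 2.30]. It is named after its value was seen.

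Acute-phase genes, which liver cells express under IL-6 and which injured tubules also express in part, formed the list with the lowest median. Of 20 genes 13 were listed and 12 tested. All 12 were lower by the 2-fold rule, against 11.0% of all tested genes. The median log2 ratio was -4.11, with a range from -7.99 to -1.40. The listed gene under the filter, *Apcs*, had a ratio whose interval included 1, and the median of all 13 was -4.07. Here too some tested genes, among them *Saa1* and *Serpina3n*, reached a value of 1 in WT+AKI alone. The filter thus favoured genes lower in TG+AKI. *Saa1* (serum amyloid A1) had 979 and 3 reads, values of 23.1 and 0.0906 and a ratio of 0.00392 [0.000808 to 0.0115]. It shares 9.80% of its 100-base words with *Saa2*. *Serpina3n*, a secreted protease inhibitor, had values of 20.4 (867 reads) and 0.423 (14 reads), and lay 48.4-fold lower in TG+AKI (28.7-fold to 88.9-fold). *Lcn2*, *C3* and *Fgg*, the others with the widest differences, had log2 ratios of -7.06, -4.94 and -4.74.

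Growth hormone and STAT5 genes mostly differed by less than 2-fold. All 10 were tested, and 0 were lower and 1 was higher by the 2-fold rule, which is close to the 7.35% of all tested genes that were higher. The median log2 ratio was 0.64, with 8 of the 10 genes at higher values in TG+AKI. *Prlr*, the prolactin receptor gene, had values of 5.33 and 29.0, a ratio of 5.44 [4.70 to 6.31]. *Igfals*, *Igf1* and *Epor* were higher by less than 2-fold, with ratios of 1.86 [1.57 to 2.22], 1.61 [1.35 to 1.92] and 1.60 [1.14 to 2.26]. In that list *Socs2* had the lowest log2 ratio (-0.99), and *Stat5a* was the other gene with a lower value in TG+AKI.

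**Figure D4:**
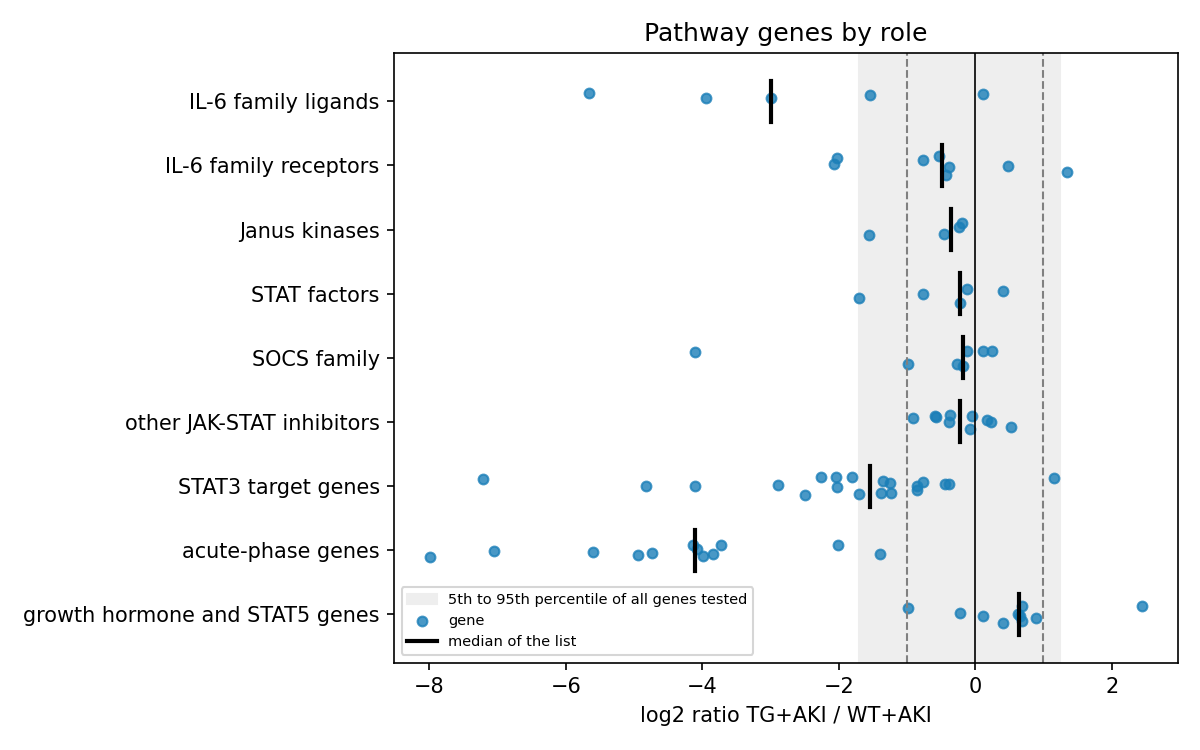
Log2 ratio of TG+AKI to WT+AKI for each tested gene of 9 lists (points, spread vertically at random), with the list median as a black bar; the grey band spans the 5th to the 95th percentile of all tested genes (-1.71 to 1.25), and dashed lines mark 2-fold. The median of acute-phase genes (-4.11) lies left of the band and that of STAT3 target genes (-1.54) within it, the median of the 5 tested ligands (-2.99) lies left of the band but that of all 7 listed ligands (-1.54) would lie within it, and the other medians lie between -0.48 and 0.64.

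Marker genes of some kidney and immune cell types also differed between the libraries, while those of other types did not. Whole kidney is a mixture, and in such samples fewer cells of a type and less RNA per cell cannot be told apart. The marker counts below stand against 11.0% lower and 7.35% higher among all tested genes. The 8 proximal tubule markers were all higher by the 2-fold rule, and their summed value was 2807 in WT+AKI and 12621 in TG+AKI. Of 8 macrophage markers 6 were lower and 0 higher, with summed values of 176 and 79.1, and the defining marker *Adgre1* (F4/80) had values of 10.9 and 4.14. *Csf1r*, a further defining macrophage marker, had values of 37.5 and 43.0, and *Mrc1* had values of 2.67 and 4.26, so that both were higher in TG+AKI. Of 7 neutrophil markers 3 were listed, with summed values of 7.38 and 1.42, while *Ly6g* was not analysed here. Of 7 fibroblast markers 4 were lower and 0 higher, with summed values of 650 and 298. T cell and B cell markers were near the floor in both libraries, with summed values of 3.11 and 3.77 for 6 T cell genes and of 1.46 and 1.87 for 4 B cell genes. Thick ascending limb markers (3 of 5 higher, summed values of 1966 and 3286) and collecting duct markers (1 of 7 higher, 385 and 517) had higher sums in TG+AKI. The 5 podocyte and 6 endothelial markers held 0 genes past 2-fold. Whether the cell makeup differed, and what part it has in the values of the 10 members, was not tested.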

How the data were processed

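Libraries were made from kidney RNA with a stranded mRNA kit (TruSeq). The authors aligned reads with STAR 2.7.3a, counted them per gene with HTSeq and normalized them, and the submitters' processing notes name mm10, DESeq2, edgeR and Cufflinks 2.2.1. The deposited normalized signal was made by the authors from read counts divided by 1 factor per library. Every value was a whole multiple of its column's smallest value (100% within 0.01), so reads were recovered. TMM factors computed with edgeR 4.0.16 (1.10 for WT+AKI, 0.909 for TG+AKI) match this scaling, and DESeq2 1.42.0 size factors were 1.14 and 0.879. Column sums were 909104 and 1099984. The strand setting and annotation are not given in the sources used here.

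Groups came from the library names. Ratios were computed without a pseudocount, with 3 reads in place of fewer for calls and log2 ratios. The members, lists and rules were chosen with earlier results of these data known. A pair of genes was left out of the lists and is not reported here. Named genes were *Inmt*, all members, all listed ligands, receptors, Janus kinases, STAT and SOCS genes, and the 5 largest absolute log2 ratios in each of 4 further lists. *Fga*, *Fgb*, *Itih4* (motif matches), *Apcs*, *Vegfa*, *Mmp9*, *Twist1* and 3 macrophage markers were named in addition. A two-sided exact binomial test was run on the reads as an alternative. It sets 1 library against the other, so it does not test the conditions, and 11011 of 14997 genes had a Benjamini-Hochberg adjusted p under 0.05. In simulated data (14717 genes, 200 changed 4-fold), 200 were recovered and 7 unchanged genes were called, and 95.3% of intervals held the simulated ratio. Only counting error was simulated, without any spread between mice. These results therefore check the computation and give no error rate for calls between the conditions. Gene positions and promoter windows are from RefSeq (GRCm38.p6, the build called mm10), in which 19780 gene IDs were found, and transcript lengths are from GENCODE M21. Each member shared under 5% of its 100-base words with other genes. Python 3.11.15 (numpy 2.4.6, scipy 1.17.1, pandas 2.3.3, matplotlib 3.10.9) and R 4.3.3 were used.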

Additional observations from a re-analysis of the deposited data

How the results depend on the processing

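All 10 members kept their direction under the 5 alternatives tried for single genes (3 scalings and pseudocounts of 1 and 10), and 30 of the 50 values stayed within the counting interval. A pseudocount of 10 moved *Lif* most, to a log2 ratio of -2.39, and brought *Socs1* to -0.06. The ligand median of -2.99 moved to -1.05 with a pseudocount of 1 and to -1.54 without a filter. The number of members lower by the 2-fold rule was 4 to 6. Among all tested genes, 1645 were lower and 1103 higher, and the higher share of both was 40.1%. With equal totals 2372 were lower and 694 higher (a share of 22.6%), since that scaling shifts every log2 ratio by -0.27. With a pseudocount of 10, 408 were lower and 372 higher, and with a filter of 10, over fewer genes, 790 were lower and 629 higher. Without a filter, over more genes, 2331 were lower and 1685 higher. The 17 list medians kept their direction wherever they could be computed. Requiring an adjusted p under 0.05 in the exact binomial test as well left the counts at 1645 lower and 1103 higher. Every 2-fold call already passed that test, so this setting adds no further check of the calls. No paired analysis was possible because each group had 1 library. Depth limits the comparison for *Osm*, *Ebi3* and *Socs1*, and for *Lif* in TG+AKI (31 reads). Even fewer TG+AKI reads lie behind other low ratios, among them *Saa1* (3), *Il1rn* (4), *Il11* (6) and *Itih4* (7). The same holds for *Serpina3n* (14), *Il27ra* (15), *Cntf* (18) and *Timp1* (22).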
